A study of Homo sapiens with 9 samples.

Results

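Open chromatin was followed at 6 loci that each hold a region higher under the antisense oligonucleotide (ASO) ASO2 than under ASO10. They are named after their genes BTLA and CD96 (both chromosome 3), FAT3 (chromosome 11), DLEU7 (chromosome 13), EDIL3 (chromosome 5) and CRH (chromosome 8). Regions were assigned to a locus when their centre lay in the GRCh38 gene span or within 50 kb of either end, with 400 kb allowed for EDIL3 and 120 kb for DLEU7. This gave 181 of the 148797 regions in the table, from 9 at BTLA to 59 at FAT3, and 143 of them passed the filter on low counts. The 6 loci were chosen by accessibility measured in these libraries. In each, the leading region is the one with the smallest p among those higher under ASO2 than ASO10, so its values are a description and are given with no test.

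The assay was ATAC-seq, which reads where the transposase Tn5 can cut and tag accessible DNA, and the cells were SK-N-BE(2)c, an established neuroblastoma line. All 3 groups received an oligonucleotide by lipofection at 100 nM and were collected 48 h later. ASO2 and ASO10 are directed at NESPR, a long non-coding RNA, while NCA serves as negative control. Each group had 3 libraries of this 1 line, with 7293565 to 10948569 counts per library. The labels do not say whether replicates were separate cultures, so p-values measure the spread between these libraries. Of 8 adrenergic genes of this tumour type, 7 had a region no farther than 1 kb from an end, among them ISL1 with 27.0 CPM and HAND2 with 23.1 CPM in NCA (CPM, reads scaled to library size with TMM factors). TH, which makes the catecholamine precursor, had none. Of 7 lymphocyte genes 3 had such a region (PTPRC, CD3D and CD79A), with a summed level of 9.07 to 12.4 CPM in NCA, 8.10 to 10.5 under ASO2 and 10.1 to 11.8 under ASO10. CD3E, CD2 and MS4A1 were among those with none. RNA was not analysed here, so neither NESPR nor the member genes have a transcript level.

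The member genes belong to no common pathway. BTLA is an inhibitory receptor of lymphocytes that binds TNFRSF14, and CD96 is a receptor of T and natural killer cells that binds PVR. FAT3 is a giant atypical cadherin with roles in neuronal shape, and EDIL3 is a secreted matrix protein that binds integrins. DLEU7 lies in a stretch that is often deleted in lymphocytic leukaemia. CRH is the neuropeptide that starts the hormonal stress response in the hypothalamus. Open regions away from gene starts often mark enhancers, but a region near a gene need not act on it.

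The leading regions lie away from the starts of the member genes, so the starts are shown first. Each sequence below is a RefSeq promoter of GRCh38.p14, 250 bases before to 50 after the start, with the CpG dinucleotides in capitals, because CpG-rich starts are the ones most often open. Entries were found for 4 of the 6 genes. FAT3 and CRH had none. They lie at chr3:112499423-112499722 (BTLA, minus strand), chr3:111541947-111542246 (CD96, plus strand), chr13:50843890-50844189 (DLEU7, minus strand) and chr5:84384831-84385130 (EDIL3, minus strand).
BTLA: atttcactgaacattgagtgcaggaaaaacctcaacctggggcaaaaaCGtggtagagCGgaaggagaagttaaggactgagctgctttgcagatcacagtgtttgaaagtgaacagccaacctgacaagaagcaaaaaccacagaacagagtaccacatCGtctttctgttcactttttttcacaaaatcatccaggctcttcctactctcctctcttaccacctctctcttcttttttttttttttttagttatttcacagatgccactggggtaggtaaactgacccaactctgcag
CD96: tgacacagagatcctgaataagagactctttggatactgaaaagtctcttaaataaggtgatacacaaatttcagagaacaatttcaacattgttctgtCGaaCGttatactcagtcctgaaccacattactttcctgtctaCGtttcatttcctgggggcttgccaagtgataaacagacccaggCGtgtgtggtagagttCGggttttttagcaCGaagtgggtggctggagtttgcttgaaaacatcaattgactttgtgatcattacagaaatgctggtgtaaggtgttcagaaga
DLEU7: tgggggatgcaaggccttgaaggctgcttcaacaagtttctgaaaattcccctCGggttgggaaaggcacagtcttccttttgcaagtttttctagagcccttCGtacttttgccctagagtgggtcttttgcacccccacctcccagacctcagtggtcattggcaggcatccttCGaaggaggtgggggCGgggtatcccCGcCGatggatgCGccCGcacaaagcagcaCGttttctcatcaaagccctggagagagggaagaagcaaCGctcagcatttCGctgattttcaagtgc
EDIL3: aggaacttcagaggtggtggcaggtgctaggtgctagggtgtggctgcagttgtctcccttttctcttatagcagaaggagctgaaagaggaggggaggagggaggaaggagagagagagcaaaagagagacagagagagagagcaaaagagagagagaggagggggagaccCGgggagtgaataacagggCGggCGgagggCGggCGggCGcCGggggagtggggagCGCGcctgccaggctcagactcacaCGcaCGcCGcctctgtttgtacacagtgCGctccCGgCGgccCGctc
The BTLA window holds 3 CpG, that of CD96 6, that of DLEU7 11 and that of EDIL3 16. No region of the table overlapped the BTLA, CD96 or DLEU7 window, and 1 overlapped that of EDIL3. Over 35116 promoter windows of this length, a region overlapped 7.69% of those with 0 to 3 CpG, 20.5% with 4 to 9, 59.7% with 10 to 19 and 86.5% with 20 or more. The start used for the BTLA entry lies 152 bases inside the gene span of the gene table.

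The leading region at BTLA spans 112446174 to 112447143 on chromosome 3, 16.8 kb beyond the 3′ end of the gene and inside no annotated gene. Its NCA libraries had 21.0, 22 and 22.8 CPM, the ASO2 libraries 42.5, 47.4 and 41.1 CPM, and the ASO10 libraries 17.6, 15.7 and 12.2 CPM. The 3 groups did not overlap, with ASO2 on top and ASO10 at the bottom. The log2 fold change was 0.99 ± 0.13 for ASO2 against NCA and -0.53 ± 0.14 for ASO10 against NCA (SE), and ASO2 was 2.88-fold above ASO10.

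At CD96 the leading region spans 111524519 to 111525995, upstream of the gene by 16.2 kb and inside the long non-coding RNA LOC105374039. NCA libraries had 20.5, 13.5 and 20.2 CPM, against 39.5, 47.4 and 39.3 under ASO2. ASO10 libraries had 16.4, 14.6 and 13.8 CPM, so they overlapped NCA, whose replicate 2 was the lowest of the 6. The log2 fold change was 1.21 ± 0.14 for ASO2 and -0.28 ± 0.15 for ASO10 against NCA (SE). CD96 is therefore the 1 locus of the 6 whose leading region was not called lower under ASO10, and for it the difference between the oligonucleotides was carried mainly by the ASO2 level.

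The FAT3 leading region, 92920359 to 92921473 on chromosome 11, lies 23.9 kb beyond the gene span. It had 15.2, 9.59 and 14.8 CPM in NCA, 22.4, 22.6 and 20.3 under ASO2, and 7.80, 8.44 and 8.80 under ASO10. The groups did not overlap, although NCA replicate 2 stood only just above the ASO10 libraries. The log2 fold changes were 0.71 ± 0.16 (ASO2) and -0.67 ± 0.18 (ASO10; SE), nearly the same size in opposite directions.

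The DLEU7 leading region, 50596058 to 50597396 on chromosome 13, lies 113.6 kb beyond the 3′ end of the gene. Its levels were 12.4, 17.9 and 11.6 CPM in NCA, 18.7, 23.6 and 21.4 under ASO2, and 8.38, 7.89 and 8.92 under ASO10. NCA replicate 2 was close to the lowest ASO2 library, and the groups still did not overlap. The log2 fold changes were 0.61 ± 0.16 and -0.74 ± 0.18 (SE).

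The EDIL3 leading region, 84774601 to 84775241 on chromosome 5, lies 389.7 kb upstream of the gene start and is the weakest of the 6. Raw counts were 24, 36 and 37 in NCA, 52, 81 and 90 under ASO2, and 9, 15 and 18 under ASO10. In CPM these were 3.02, 4.42 and 4.10, then 7.13, 8.52 and 8.05, then 1.03, 1.67 and 2.3. The groups did not overlap, and the fold between ASO2 and ASO10 was the widest of the 6, at 4.75. The log2 fold changes were 1.03 ± 0.29 and -1.22 ± 0.35 (SE).

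The CRH leading region, 66190524 to 66191984 on chromosome 8, lies 12.1 kb beyond the gene span. It had 27.7, 20.8 and 24.4 CPM in NCA, 33.9, 43.6 and 32.7 under ASO2, and 16.9, 16.2 and 17.2 under ASO10. The groups did not overlap, and the ASO10 libraries lay within 1 CPM of each other. The log2 fold changes were 0.60 ± 0.13 and -0.54 ± 0.14 (SE), and the 2.19-fold gap between ASO2 and ASO10 was the narrowest of the 6.

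**Figure D1:**
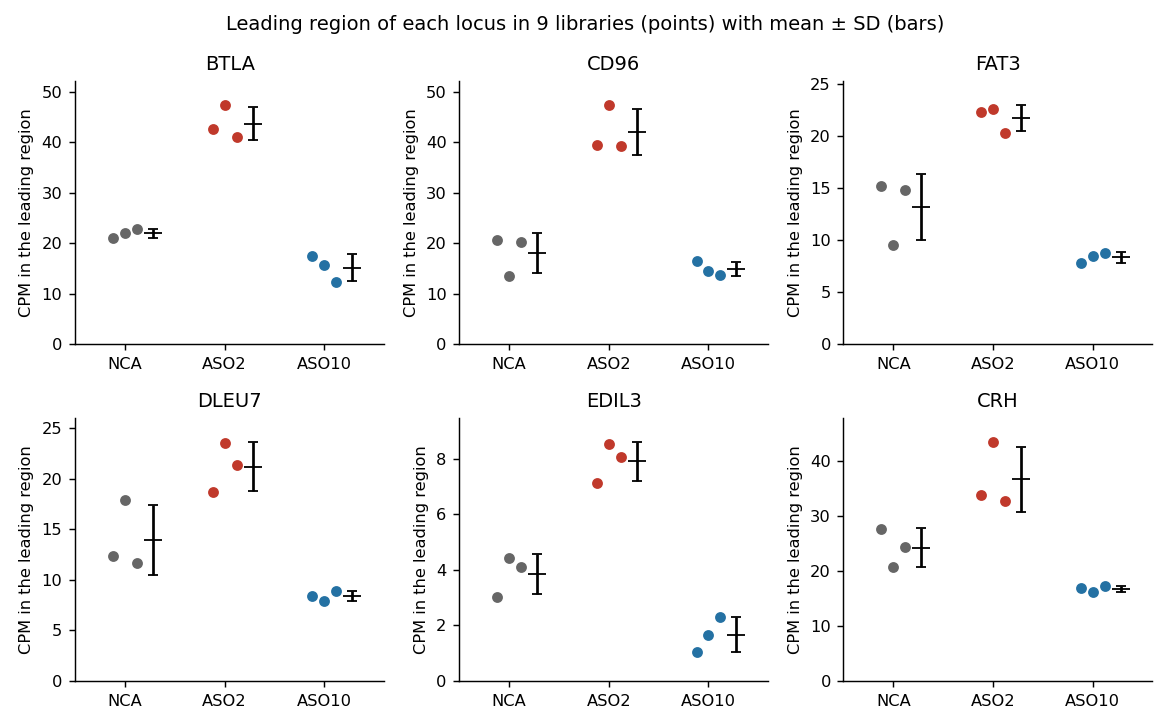
CPM (linear axis from 0) of the leading region of each locus, with 1 point per library and the mean ± SD of 3 libraries beside it. ASO2 is above NCA in all 6 panels, and ASO10 is below NCA without overlap in every panel but CD96.

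Per kb of region, NCA accessibility of the leading regions was highest at BTLA (22.6 ± 0.916 CPM per kb, SD, n = 3), then CRH (16.6 ± 2.38). CD96 (12.2 ± 2.67), FAT3 (11.9 ± 2.83) and DLEU7 (10.4 ± 2.58) did not differ beyond their spread, and EDIL3 was lowest (6.0 ± 1.14). In mean CPM over the 9 libraries the leading region was the strongest of its locus at BTLA, second at CD96, DLEU7 and CRH, number 3 at FAT3, and only 22nd of 54 at EDIL3. The 6 leading regions were 641 to 1477 bases wide, against a median of 373 over the table.

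Over all 119417 tested regions, ASO2 libraries were all above NCA in 12%, ASO10 libraries all below NCA in 7.1%, and ASO2 all above ASO10 in 11%. The 6 leading regions, chosen for such values, had these orders in 6, 5 and 6 cases, which says nothing more than the choice. Calls in both directions, higher under ASO2 and lower under ASO10 (edgeR adjusted p under 0.05 each), occurred in 5 regions or 0.00419%, and these are the leading regions of all loci but CD96. These calls are part of the choice and are no test of it. EDIL3 lay nearest the edge on the inside. Just outside were a region in ADAMTS9-AS2 on chromosome 3 (log2 fold changes 0.56 under ASO2 and -0.83 under ASO10), one 24.9 kb from FRAS1 on chromosome 4 (0.41 and -0.57) and one 31.6 kb from DUSP10 on chromosome 1 (0.75 and -0.92). Which regions fell inside depended on the setting more than the fold changes did. With limma-voom 0 of the 5 were called lower under ASO10, while their log2 fold changes were -0.54 at BTLA, -0.64 at FAT3, -0.71 at DLEU7, -1.26 at EDIL3 and -0.53 at CRH. Leaving out 1 ASO10 or NCA library left 0 to 2 of the 5 called lower, with 0 without ASO10 replicate 2. The call under ASO2 was lost at FAT3 without NCA replicate 2, at DLEU7 without ASO2 replicate 2 or NCA replicate 1 or 3, and at EDIL3 without ASO2 replicate 2 or 3 or NCA replicate 1. The direction did not change in any leading region under any alternative, ASO10 at CD96 included.

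The regions around a leading region show how far its change extends. Of the other 137 tested regions, 19 rose under ASO2 against NCA by edgeR's quasi-likelihood test (adjusted p under 0.05), or 13.9%, and 0 fell. Of all tested regions 4.79% rose and 0.808% fell. The median log2 fold change of the 137 was 0.23, against -0.02 over the table. By locus it was 0.32 at FAT3 and 0.65 at EDIL3, but -0.27 at BTLA, -0.37 at CD96, -0.01 at DLEU7 and -0.69 at CRH. All 19 lay at FAT3 and EDIL3. Under ASO10, 1 of the 137 rose and 0 fell, against 0.876% and 0.21% of the table, with a median of 0.03 against -0.01. Between ASO2 and ASO10, the contrast that chose the loci, 11 of the 137 were higher and 0 lower, beside 2.54% and 0.682% of all tested. Both ASO groups are set against the same NCA libraries.

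At BTLA the leading region stood alone. The nearest tested regions, 9.16 kb below and 72.7 kb above it, had log2 fold changes of -0.35 ± 0.33 and -0.18 ± 0.25 under ASO2 (SE), and 0 of the other 4 tested regions was called in any contrast. At 4 tested regions with at most 6.75 CPM in NCA this is a weak check. None of the 9 regions lay over the BTLA start, and the nearest was 10.7 kb away.

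At CD96, 0 of the other 15 tested regions was called against NCA under either ASO. Of all tested regions 4.79% rose and 0.808% fell under ASO2, and 0.876% rose and 0.21% fell under ASO10. A count of 0 in 15 is near these shares and is a weak check. The neighbours at 6.22 kb and 14.6 kb had ASO2 log2 fold changes of 0.02 ± 0.63 and -0.37 ± 0.33 (SE). A second region, 111507567 to 111509211, lies 16.9 kb farther from the gene in the same non-coding transcript and followed the order of the leading one. It had 15.1, 13.2 and 11.6 CPM in NCA, 21.3, 17.4 and 14.0 under ASO2, and 10.7, 9.67 and 9.31 under ASO10. ASO2 overlapped NCA there, and its log2 fold change of 0.81 ± 0.17 (SE) between ASO2 and ASO10 was called, while neither ASO was called against NCA. The strongest region of the window lies at the start of PLCXD2. NCA had 42.7 ± 2.96 CPM there, ASO2 39.0 ± 3.28 and ASO10 37.7 ± 4.02 (SD, n = 3 each), within the spread of the libraries.

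The leading regions of CD96 and BTLA are 921.4 kb apart. In the stretch between the 2 windows, 44 regions were tested, of which 1 rose and 1 fell under ASO2, 1 rose under ASO10, and 0 differed between ASO2 and ASO10. The ASO2 calls are 2.27% in each direction, beside 4.79% and 0.808% of all tested regions, and the ASO10 rise is 2.27% beside 0.876%, each from a single region. Between ASO2 and ASO10 the shares of all tested regions were 2.54% and 0.682%. The median log2 fold changes there were -0.08 and -0.14.

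At DLEU7, 0 of the other 15 tested regions was called against NCA. With 4.79% of all tested regions higher under ASO2 and 0.21% lower under ASO10, this is again a weak check. The nearest tested region, 8.78 kb away on the side farther from the gene and outside the window, averaged 1.22 CPM for NCA, with log2 fold changes of -0.17 ± 0.61 and 0.84 ± 0.59 (SE). The next tested region toward the gene, 95.2 kb away, was the strongest of the window at 31.1 ± 2.43 CPM in NCA and 33.3 ± 5.48 under ASO2 (SD, n = 3 each). A region in DLEU7 itself, 50711531 to 50712054, had 5.67, 5.16 and 4.76 CPM in NCA, 6.59, 6.21 and 7.43 under ASO2, and 2.07, 4.44 and 3.44 under ASO10. The groups did not overlap, and it was called only between ASO2 and ASO10 (log2 fold change 1.02 ± 0.28, SE). The region over the start of RNASEH2B, a subunit of an RNase that cuts RNA in DNA hybrids, was not called under either ASO. Its log2 fold changes were -0.22 ± 0.19 and -0.26 ± 0.19 (SE), and ASO10 lay below NCA without overlap.

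At CRH, 0 of the other 9 tested regions was called against NCA. Beside the shares of all tested regions (4.79% higher under ASO2, 0.21% lower under ASO10), 0 of 9 is a weak check too. The region over the gene itself, 66176746 to 66178850, was the strongest of the locus, with 26.2, 25.6 and 28.4 CPM in NCA, 32.5, 29.3 and 29.8 under ASO2, and 33.6, 26.3 and 30.2 under ASO10. Its log2 fold changes were 0.19 ± 0.13 and 0.17 ± 0.13 (SE; edgeR adjusted p = 0.507 and 0.711). The gene's own region did not pass the test under either ASO, though ASO2 lay above NCA there without overlap. The leading region, 13.5 kb from it between centres, had opposite signs under the 2 ASOs, which was part of its choice. The difference between the 2 regions was not tested. The neighbour on the other side, 4.48 kb away in LINC00967, had 11.2, 13.0 and 13.0 CPM in NCA and 13.3, 14.1 and 14.4 under ASO2. Under ASO10 it had 6.54, 9.78 and 9.69 CPM, below all NCA libraries, at -0.52 ± 0.19 (SE) on the log2 scale (adjusted p = 0.185 by edgeR).

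**Figure D2:**
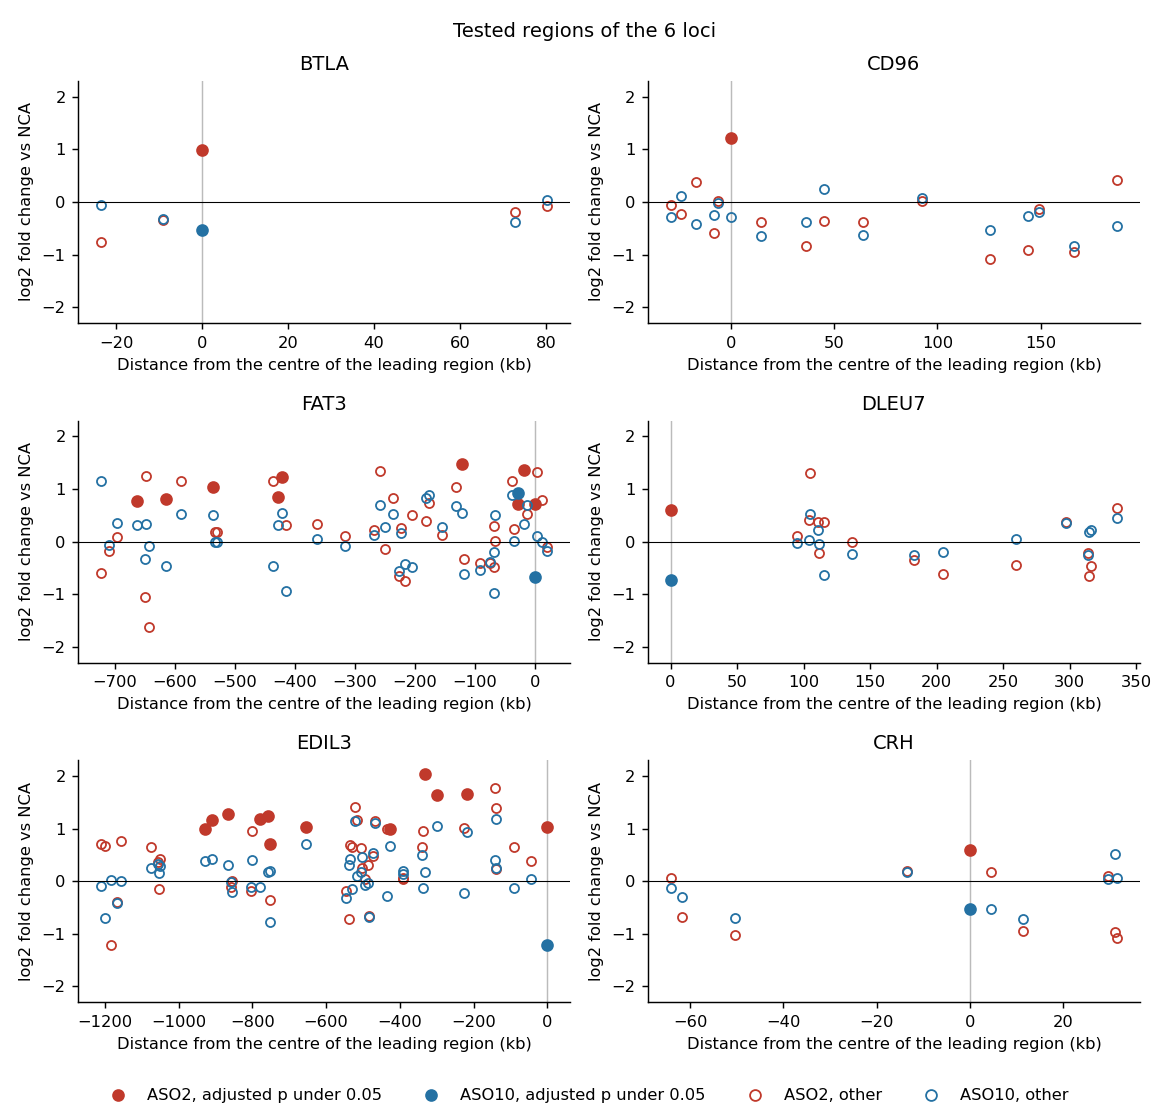
Log2 fold change against NCA of every tested region, by distance in kb from the centre of the leading region (at 0), for ASO2 (red) and ASO10 (blue). Filled points passed an edgeR adjusted p of 0.05. At BTLA, CD96, DLEU7 and CRH the leading region holds the only filled points, while FAT3 and EDIL3 have 8 and 11 other filled ASO2 points.

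Rises in regions other than the leading one were called at FAT3 and EDIL3. At FAT3, 8 of the other 45 tested regions rose under ASO2 (17.8%), 7 of them inside the gene span, which covers 671656 bases. At EDIL3, 11 of the other 49 rose (22.4%), on both sides of the gene start and across a window of 1244 kb. That window also holds regions inside the genes VCAN and HAPLN1. Beside these shares, 4.79% of all tested regions rose under ASO2. The ASO2 libraries also entered the choice of the loci. Without the leading region, the median log2 fold change was 0.32 at FAT3 and 0.65 at EDIL3 under ASO2, and 0.13 and 0.18 under ASO10. No region of either locus fell under ASO2, and the 1 that fell under ASO10 in each was the leading region.

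Within FAT3, the strongest of these regions was 92492301 to 92492965. It had 14.0, 13.8 and 13.4 CPM in NCA, 24.7, 28.7 and 20.5 under ASO2, and 18.4, 15.6 and 17.5 under ASO10. Both ASO groups were above NCA without overlap, but only ASO2 passed the test (adjusted p = 6.5e-06 by edgeR; log2 fold change 0.84 with SE 0.15). The region 92306928 to 92307758 followed the order of the leading regions, with 5.80, 6.64 and 5.98 CPM in NCA, 13.7, 10.0 and 9.12 under ASO2, and 4.59, 4.67 and 4.08 under ASO10. It rose under ASO2 (edgeR adjusted p = 0.0102), and ASO10 lay below NCA with no overlap yet did not pass (adjusted p = 0.514 by edgeR; log2 fold change -0.46 with SE 0.25).

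The nearest tested regions to the FAT3 leading region were weak. The one 3.15 kb above it had 0.378, 1.23 and 1.33 CPM in NCA, 2.61, 3.05 and 1.88 under ASO2, and 1.03, 0.889 and 1.27 under ASO10. ASO2 lay above NCA without overlap and did not pass (log2 fold change 1.33 with SE 0.59, adjusted p = 0.199 by edgeR), and ASO10 was at 0.10 ± 0.62. The one 13.6 kb below had log2 fold changes of 0.52 ± 0.44 and 0.70 ± 0.43 (SE), neither called. The region 92902459 to 92903128, 18.1 kb away, rose under ASO2 (adjusted p = 9.5e-06 by edgeR; log2 fold change 1.36 with SE 0.25) and had 3.94 CPM in NCA and 4.97 under ASO10. The region 92893030 to 92893837 in the gene, 27.5 kb away, rose under both. It had 5.80, 7.13 and 7.42 CPM in NCA, 11.5, 8.63 and 13.3 under ASO2, and 13.8, 10.8 and 14.2 under ASO10. Its log2 fold changes were 0.72 ± 0.20 (edgeR adjusted p = 0.0112) and 0.92 ± 0.20 (adjusted p = 0.00221), and it is the only one of the 143 tested regions called higher under ASO10. This region and the leading one, under 30 kb apart, had opposite signs under ASO10 and the same sign under ASO2. The signs of the leading region were part of its choice, and the difference between the 2 was not tested.

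At EDIL3, the largest rise was in 84443391 to 84444103, upstream of the gene start. It had 1.64, 2.09 and 2.1 CPM in NCA, 9.06, 6.31 and 8.77 under ASO2, and 2.18, 1.67 and 2.81 under ASO10. ASO2 stood clear of the other 6 libraries, by 2.03 ± 0.33 (SE) on the log2 scale against NCA (adjusted p = 2.4e-07 by edgeR), and ASO10 was at 0.17 ± 0.37. Farther upstream, 84557053 to 84557564 had 2.90, 2.58 and 2.55 CPM in NCA, 7.41, 11.3 and 6.71 under ASO2, and 5.97, 3.67 and 5.87 under ASO10. Both ASO groups lay above NCA, and only ASO2 passed (log2 fold change 1.66 with SE 0.28, adjusted p = 1.1e-06 by edgeR), with ASO10 at 0.94 ± 0.30. In the gene, 83995447 to 83996118 averaged 3.60 CPM for NCA, 8.27 for ASO2 and 3.41 for ASO10, so only ASO2 stood apart (adjusted p = 0.00119 by edgeR). Next to the leading region, the tested region 45.2 kb below had log2 fold changes of 0.38 ± 0.31 and 0.04 ± 0.32 (SE), neither called. The one 110.7 kb above, beyond the window, rose under ASO2 by 1.08 ± 0.22 on the log2 scale (adjusted p = 7.4e-05 by edgeR) and was at 0.63 ± 0.23 under ASO10. Also inside the gene, 84023482 to 84024608 was the strongest of the regions that rose, where NCA had 10.3 ± 0.856 CPM, ASO2 16.8 ± 1.13 and ASO10 11.9 ± 0.671 (SD, n = 3 each; adjusted p = 0.00237 for ASO2, edgeR). None of the 11 was called under ASO10.

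**Figure D3:**
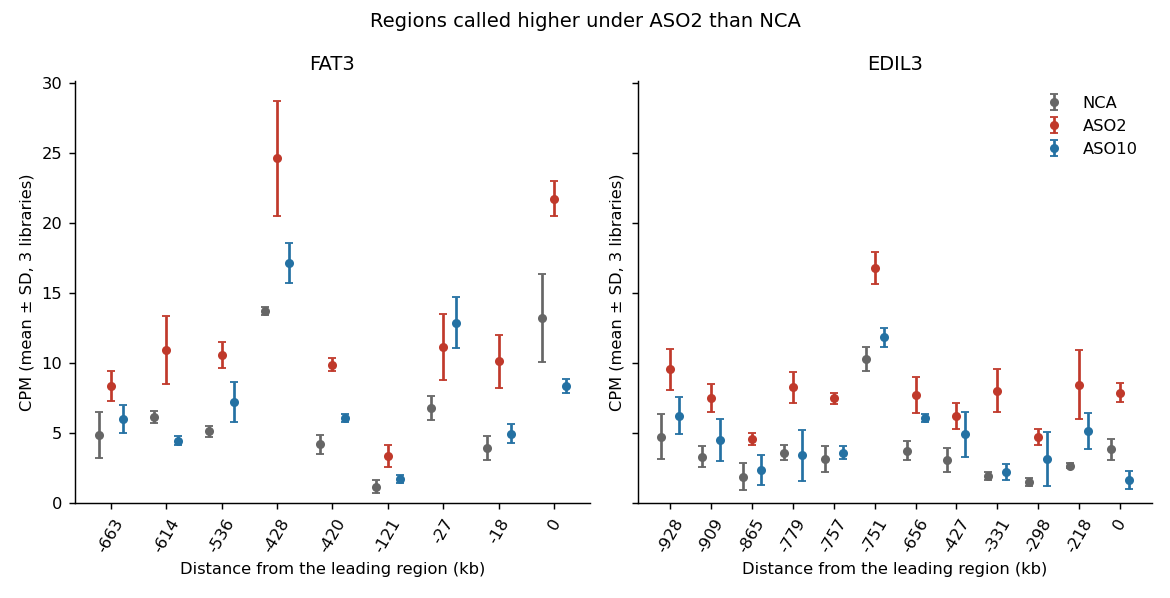
CPM (linear axis from 0; mean ± SD of 3 libraries) of the 9 FAT3 and 12 EDIL3 regions called higher under ASO2 than NCA, ordered by position and marked by their distance from the leading region (0). ASO10 lies near NCA or between NCA and ASO2 in most, above ASO2 at -27 kb of FAT3, and lowest in both leading regions.

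EDIL3 is also expressed by matrix-producing cells. Of 5 mesenchymal genes, 3 (COL1A1, DCN and LUM) had a region no farther than 1 kb from an end, with a summed level of 21.3 to 24.7 CPM in NCA, 27.2 to 30.7 under ASO2 and at most 21.0 under ASO10. The list was thus higher under ASO2 with no overlap, and ASO10 lay below NCA, while at EDIL3 the regions other than the leading one summed to more under ASO10 than in NCA. Within the list COL1A1 had a mean of 6.44 CPM for NCA and 7.53 for ASO10, against the order of the list, and 1 region, at DCN, was called in a contrast. COL3A1 and PRRX1 had none. The part of such cells in the EDIL3 result was not tested. In bulk libraries, a change in the share of cells and a change per cell cannot be told apart.

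The starts of the member genes, where the table has a region there, did not pass the test under either ASO. The region over the EDIL3 start stood at 16.8 CPM for NCA, 17.4 for ASO2 and 19.2 for ASO10, with log2 fold changes of 0.05 ± 0.15 and 0.19 ± 0.15 (SE; edgeR adjusted p = 0.921 and 0.717). The region at the lower-coordinate end of FAT3, 92224491 to 92226821, stood at 13.7 CPM for NCA, 14.5 for ASO2 and 17.5 for ASO10. Its log2 fold changes were 0.08 ± 0.16 and 0.36 ± 0.16 (SE, edgeR adjusted p = 0.870 and 0.388), and ASO10 lay above NCA without overlap. The CRH region is given above. For CD96 and DLEU7 the nearest regions were 2.08 and 12.3 kb from the start.

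When all regions of a locus but the leading one were summed per library, the ASO2 libraries lay above all NCA libraries at FAT3 and EDIL3 and overlapped NCA at the other 4 loci. At FAT3 the sum was 171.0, 183.6 and 197.1 CPM in NCA and 243.5, 253.4 and 230.9 under ASO2. At EDIL3 it was 200.3, 210.7 and 216.7 CPM in NCA and 290.4, 313.2 and 270.8 under ASO2. The log2 ratios of the means were 0.40 and 0.48. ASO10 was also above all NCA libraries in both, with ratios of 0.16 and 0.18. At CRH the ASO2 sum was 66.0 ± 1.69 CPM against 66.5 ± 4.37 in NCA (SD, n = 3 each), and at DLEU7 91.8 ± 5.20 against 88.7 ± 2.96. At BTLA and CD96 the ASO2 log2 ratios were -0.23 and -0.11, opposite in sign to the leading region. At CD96 the ASO10 sum was 88.2, 84.1 and 75.1 CPM, below all NCA libraries (106.2, 91.4 and 97.2), with a log2 ratio of -0.25 that is larger in size than the ASO10 ratios at FAT3 and EDIL3. Exact two-sided permutation tests over 3 against 3 libraries cannot give a p under 0.1. That value was reached by 5 of the 12 tests, both ASOs at FAT3 and EDIL3 and ASO10 at CD96, and the adjusted p was 0.24 for each.

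**Figure D4:**
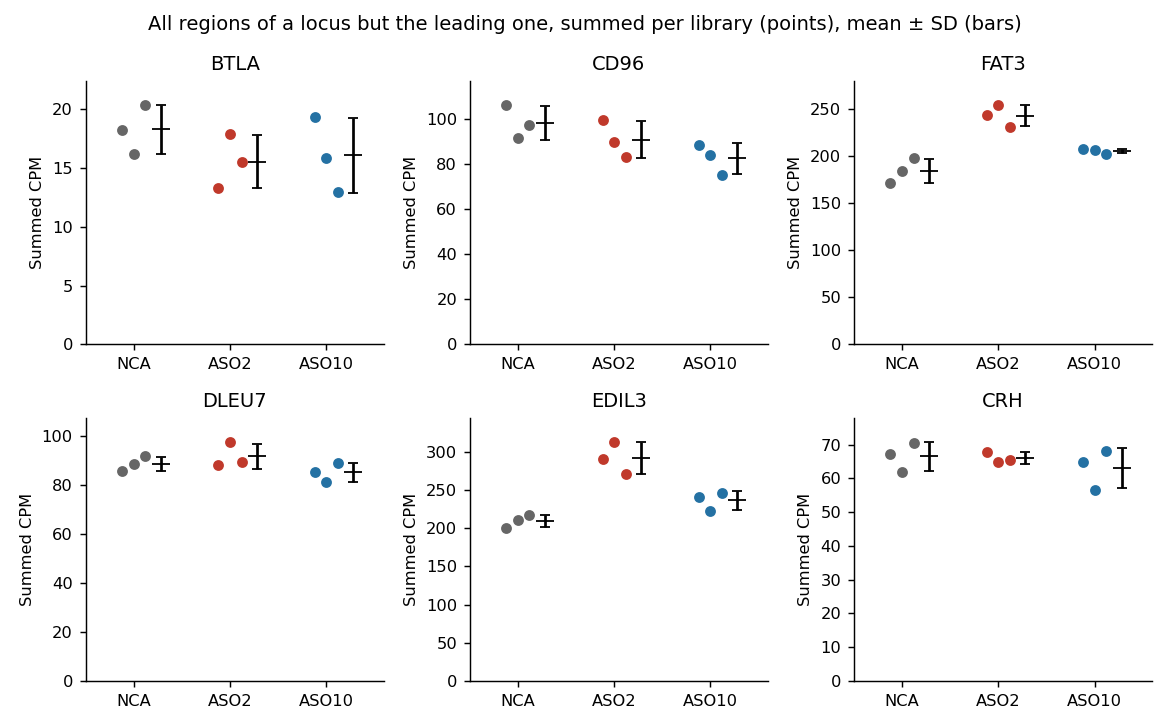
Summed CPM (linear axis from 0) of all regions of a locus except the leading one, with 1 point per library and the mean ± SD of 3 libraries. ASO2 lies above NCA at FAT3 and EDIL3 and overlaps it at DLEU7, CRH, BTLA and CD96.

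Genes that bind, resemble or neighbour the members were examined for the same behaviour. Of 29 such genes (among them the ligands TNFRSF14 and PVR, the cadherins FAT1, FAT2 and FAT4, integrins, and the receptors CRHR1 and CRHR2), 227 tested regions lay in the span or within 50 kb and outside the 6 loci. Under ASO2 10 of them rose and 4 fell, or 4.41% and 1.76%, beside 4.79% and 0.808% of all tested regions. Under ASO10 0 rose and 1 fell, beside 0.876% and 0.21% of all tested. FAT4, a relative of FAT3, held 4 of the 10, all inside the gene, with ASO2 log2 fold changes from 0.68 to 1.5. The non-coding gene DLEU1 and its surroundings held 4 more, with 0.98 to 1.78, at lower coordinates than the DLEU7 window. The last 2 lay near CD226, a receptor that shares a ligand with CD96. One of these, 69838824 to 69839454 on chromosome 18 inside DOK6, averaged 5.83 CPM for NCA, 9.73 for ASO2 and 3.82 for ASO10, and was called between ASO2 and ASO10, with a log2 fold change under ASO10 of -0.61 that did not pass (edgeR adjusted p = 0.347).

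The standardised profile of the 6 leading regions over the 9 libraries was compared with 24211 regions outside the loci that averaged 3 log2 CPM or more. The leading regions themselves had Pearson r of 0.929 to 0.979 with their mean. The 6 most similar outside regions had r of 0.966 to 0.988 over the 9 libraries, which share library and depth, and these values are a description. They lay 177 kb from MYCN, 5.04 kb from MCCC1, 24.9 kb from FRAS1, inside CD58, 430.9 kb from KLF6 and inside WNT3A. Likeness in order did not mean likeness in size. The region near MYCN, at 1160 CPM in NCA, had log2 fold changes of 0.15 and -0.11 against NCA, neither called. Between ASO2 and ASO10 that region was called, at 0.26. The one near MCCC1 had 0.74 and -0.37 against NCA. The region near FRAS1 also lay just outside the calls in both directions, averaging 19.9 CPM for NCA, 26.5 for ASO2 and 13.4 for ASO10.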

How the data were processed

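The deposited table holds counts for 9 ATAC-seq libraries in 1 shared set of regions. The authors left these counts unscaled: they are whole numbers with unequal totals. The submitters' processing notes name FastQC, Bowtie2 2.2.6, SAMtools, MACS2 2.1.2, DESeq2 1.42.0 and the build hg38; the role of each, the Tn5 shift and the counted unit are not given in the sources used here. RNA is listed as the molecule in the labels, although the protocol is one for tagmented DNA. Gene spans and promoters came from RefSeq (GRCh38.p14); exons and introns were not resolved, and the sequence of the leading regions was not used here.

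Counts were filtered with filterByExpr (119417 regions left), scaled by TMM and tested with edgeR 4.0.16 (robust quasi-likelihood fit, all 9 libraries, 1 term per group; R 4.3.3), with Benjamini-Hochberg adjustment over all tested regions and a threshold of 0.05. On simulated counts with 200 of 119417 regions changed by 1 on the log2 scale, the test of ASO2 against NCA found 21.5%. Among the 34 that exceeded 3 log2 CPM it found 88.2%. It made 45 calls, 2 of them false. Far fewer regions were changed there than were called under ASO2 in the data (5722 higher and 965 lower). The adjusted threshold is stricter when fewer regions change, so these shares do not measure recovery in the data. Alternatives were DESeq2 1.42.0, limma-voom (limma 3.58.1), RLE factors, loess offsets (span 0.3), and a minimum of 10 counts per library or no minimum. Others were a fit of only the compared groups, a replicate block, total counts, sums without the leading region, and leaving out each library. A further alternative dropped the margins at BTLA, CD96, FAT3 and CRH, while EDIL3 and DLEU7 kept theirs of 400 kb and 120 kb. Permutation tests used scipy 1.17.1.

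The members and lists were chosen with earlier results of these data known. Regions named were, per locus, the leading region, its tested neighbours, the region at a gene start, and up to 4 called regions by smallest p. The regions at the PLCXD2 and RNASEH2B starts, 92893030 to 92893837 at FAT3, 84023482 to 84024608 at EDIL3 and 69838824 to 69839454 in DOK6 fall outside this rule and were chosen after their values were seen. The 6 outside regions were the most similar in Pearson r. One marker gene of the lists is not reported here.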

Additional observations from a re-analysis of the deposited data

Results flagged for a closer look

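Besides the leading regions, 11 regions of the 6 loci differed between ASO2 and ASO10 in the edgeR fit, all higher under ASO2. They come from the contrast that chose the loci. Their log2 fold changes were 0.81 at CD96 (111507567 to 111509211) and 1.02 in DLEU7 (50711531 to 50712054). The region near CRH in LINC00967 (66195434 to 66196040) had 0.69. At FAT3 they were 1.28 (92306928 to 92307758), 1.60 (92484529 to 92484946), 0.52 (92492301 to 92492965) and 1.02 (92902459 to 92903128). At EDIL3 they were 1.29 (83995447 to 83996118), 1.05 (84017787 to 84018892), 1.27 (84338786 to 84339439) and 1.86 (84443391 to 84444103).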

How the results depend on the processing

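No called value changed sign. Over the alternatives, 303 values for single regions and 64 counts or sums stayed close to the main ones, while 9 counts fell by over 1.5 times and 5 sums moved by more than 1 SD. The number of locus regions called under ASO10 against NCA was 6, of which 5 were leading regions. It was 1 with limma-voom and ran from 1 to 5 without 1 library each. It was 3, with 1 higher and 2 lower, when BTLA, CD96, FAT3 and CRH were cut to gene spans. EDIL3 and DLEU7 kept their wider margins in that setting. The same setting, which holds fewer regions, gave 10 in place of 17 between ASO2 and ASO10. No setting removed all margins. The ASO2 count of 25 stayed between 17 and 29. All these counts include leading regions, which were chosen in these libraries, so their stability is no test of the choice. Without the leading regions the main fit called 19 higher under ASO2 (13.9%), 1 higher under ASO10 (0.73%) and 11 higher under ASO2 than ASO10 (8.03%). The shares of all tested regions were 4.79%, 0.876% and 2.54%. Leaving out the leading region changed the log2 ratio of summed CPM under ASO2 to -0.23 at BTLA, -0.11 at CD96, 0.049 at DLEU7 and -0.011 at CRH, and under ASO10 to -0.059 at DLEU7; it turned the sign at BTLA, CD96 and CRH. The EDIL3 leading region, with 9 counts in 1 library, was not tested when 10 were required. Its ASO2 call was lost in 3 and its ASO10 call in 13 of 16 alternatives. The replicate block gave 24, 5 and 17 calls for ASO2, ASO10 and ASO2 against ASO10. Same-numbered libraries had correlated deviations of only -0.0363 to 0.0126, and a library correlated best with its own number in 3 of 18 checks, so the numbers were not taken as pairs. Depth limits weak regions: 38 regions of the loci were below the filter.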
